A study of Mus musculus with 4 samples.

Results

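The 6 genes described here encode the error-prone DNA polymerases Polh, Poli, Polk, Polq, Rev1 and Rev3l. They were picked out by gene symbol, as 6 of the 37646 genes in each count table, and all 6 were found with 1 row each. The choice of genes was made with earlier results of these data known. RNA came from 4 libraries of splenic B220+ YFP+ cells of C57BL/6 mice with the genotype YFPstopF/+; Cg1Cre/+, the normal controls of a lymphoma study. The mice had been injected intraperitoneally with sheep red blood cells, and again 20 days later, and cells were taken 10 days after the second injection. The age of the mice was not given. The labels call the cells germinal centre B cells. The reporter marks any B cell in which Cre, driven from the Ighg1 (Cg1) locus, was active at some time, so that cells that have left the germinal centre reaction can carry it too. All 4 libraries form 1 group, so the comparisons below are between genes within a library and between libraries. Nothing in the labels says that the libraries came from separate animals, and p-values over libraries therefore measure only the spread between these samples, part of which may be technical.

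Translesion polymerases copy DNA past lesions at which the replicative polymerases stall, and pay for this with low accuracy. Polh (polymerase eta), Poli (iota), Polk (kappa) and Rev1 belong to the Y family. Rev1 inserts cytosine and also serves as a scaffold for the others, and Rev3l is the catalytic subunit of polymerase zeta, which extends from mismatched ends. Polq (polymerase theta) is an A-family enzyme best known for end joining at short homologies. In germinal centre B cells antibody genes are mutated on purpose, and polymerase eta, recruited through ubiquitinated PCNA, is the main source of mutations at A:T pairs, while Rev1 contributes to mutations at C:G pairs.

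Depth, sort purity and sex were looked at first. Totals ran from 13777954 to 14629025 counts per library, so that a gene with no reads could still be present at up to 3 counts, or 0.205 to 0.218 CPM (the counts-per-million scale). All 10 germinal centre markers stood above 1 TPM (the transcripts-per-million scale) in every library, as did all 8 markers of naive and memory B cells, all 8 of plasma cells and all 10 of T cells. So did 9 of 10 myeloid and 3 of 8 erythroid markers, beside 53.3% of all protein-coding genes. The sorted cells thus held transcripts of other stages and lineages, and in such bulk RNA fewer cells of a type and less RNA per cell cannot be told apart. Library 3 alone carried the Y-linked transcript Ddx3y (1307 counts, at most 3 in the others) and had 6 counts of Xist, against 8689 to 12160. It therefore did not come from the same animals as the other 3, and sex cannot be told apart from any other difference of that library.

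The promoters of Polh, Rev1 and Polq are shown because Polh and Rev1 lead the levels and Polq lies below both. RefSeq windows of 300 bases (GRCm38.p6, the assembly also named mm10) reach from 250 bases before to 50 after the transcription start. They were used for 4 members, Polh, Polk, Polq and Rev1, matched by symbol. Polk had 2 windows, and only the one with the outermost start was searched. None was found for Rev3l. Poli was left out of the search, so its promoter was not looked at. The Polh window lies at chr17:46202592-46202891, the Rev1 window at chr1:38129617-38129916, both on the minus strand, and the Polq window at chr16:37011536-37011835 on the plus strand. All are printed 5′ to 3′ along the gene, with capitals at the motifs named next.
Polh: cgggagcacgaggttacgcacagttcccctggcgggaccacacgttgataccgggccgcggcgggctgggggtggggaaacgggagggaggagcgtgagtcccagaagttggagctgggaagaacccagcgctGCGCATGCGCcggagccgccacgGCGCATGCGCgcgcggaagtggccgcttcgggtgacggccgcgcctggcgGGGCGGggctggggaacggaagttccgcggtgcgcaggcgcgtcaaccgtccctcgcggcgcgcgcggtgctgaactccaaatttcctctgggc
Rev1: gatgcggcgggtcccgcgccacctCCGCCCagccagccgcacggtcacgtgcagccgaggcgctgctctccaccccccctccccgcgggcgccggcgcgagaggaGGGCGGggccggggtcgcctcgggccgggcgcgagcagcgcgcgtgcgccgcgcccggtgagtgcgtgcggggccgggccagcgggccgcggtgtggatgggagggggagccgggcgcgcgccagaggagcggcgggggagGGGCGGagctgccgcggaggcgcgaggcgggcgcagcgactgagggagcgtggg
Polq: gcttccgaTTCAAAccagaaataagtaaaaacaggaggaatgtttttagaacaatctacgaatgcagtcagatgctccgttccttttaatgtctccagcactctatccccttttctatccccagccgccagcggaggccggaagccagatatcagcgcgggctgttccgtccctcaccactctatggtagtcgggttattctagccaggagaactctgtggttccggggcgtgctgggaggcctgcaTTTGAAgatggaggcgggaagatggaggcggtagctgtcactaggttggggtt

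The Polh window holds the palindrome GCGCATGCGC, the core bound by NRF1, at 2 places that do not overlap. This word occurs in 319 of 32851 windows of that length (0.971%). A GC box (GGGCGG, on either strand) occurs once in Polh and Polk and 3 times in Rev1, against 35.7% of all windows with at least 1. The Polq window has no GC box. It holds TTTGAA, a form of the cell cycle homology region (CHR) searched as TTTGAA or TTCGAA on both strands, at 2 places, one of them across the transcription start, and 19.2% of all windows hold the CHR words. No E2F word (TTTCCCGC, TTTCGCGC, TTTGCCGC or TTTGGCGC, 2.26% of windows), CCAAT box (CCAAT, 37.4%) or TATA box (TATAAA, 13.6%) was present in these 4 windows, each searched on both strands. The base composition differed as well: G and C made up 83% of the Rev1 window, 72% of Polh, 68.7% of Polk and 52.7% of Polq, and 52.7% was also the median of all windows. These are matches of letters and do not show binding.

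All 6 polymerases were expressed in every library. Levels are given in TPM, counts divided by the length of the union of a gene's exons, as mean ± SD over 4 libraries. Polh, Rev1 and Poli were close together at the top, at 22 ± 7.65, 21 ± 4.99 and 19.4 ± 5.46 TPM. Rev3l followed at 14.6 ± 3.25, Polq at 8.55 ± 2.43 and Polk at 3.9 ± 1.13 TPM. Among 18712 protein-coding genes, 77.9% had a lower mean than Polh and 54% a lower mean than Polk, the ends of the range.

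**Figure D1:**
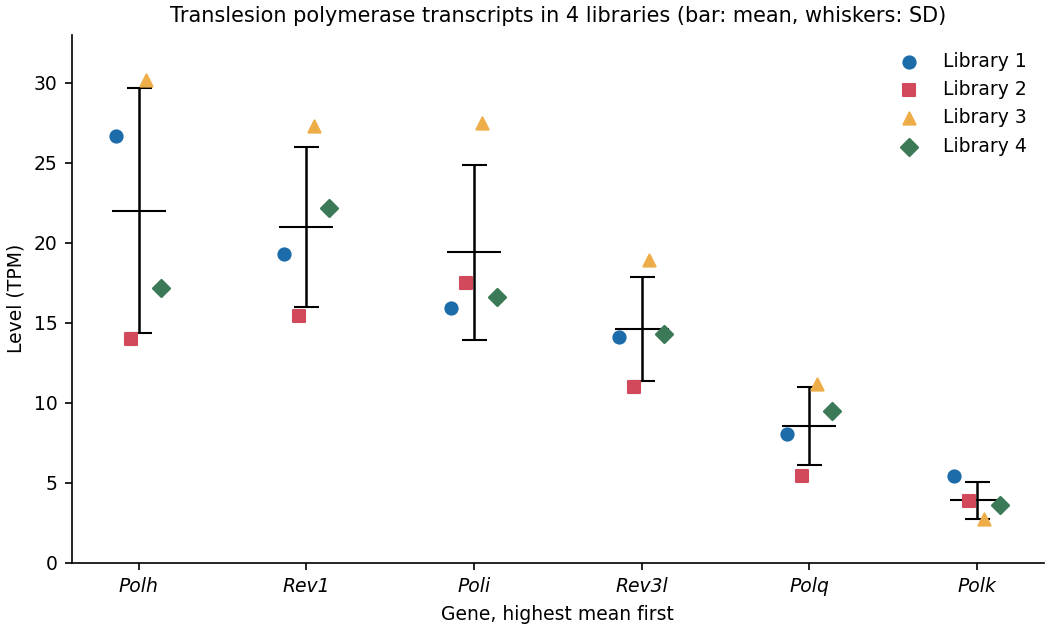
Level of each translesion polymerase gene (TPM, linear axis from 0) in libraries 1 to 4, with the mean as a bar and the SD as whiskers. The points of Polh, Rev1 and Poli overlap, whereas those of Polq lie between 5.45 and 11.2 and those of Polk between 2.72 and 5.43 TPM.

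Polh (chromosome 17, 46171355 to 46202645, minus strand, mm10), the polymerase of A:T mutation, had the largest SD in TPM. It stood at 26.7 TPM in library 1, 14 in library 2, 30.2 in library 3 and 17.2 in library 4. Libraries 1 and 3 were thus higher than libraries 2 and 4. The counts behind these levels were 1022, 544, 1059 and 649, with exact Poisson 95% intervals of 960 to 1087 in library 1 and 499 to 592 in library 2. Such intervals cover counting error alone. The listed processing tools name no step that removes PCR copies of a molecule. Copies counted as separate reads would make the intervals too narrow.

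Rev1 (chromosome 1, 38052786 to 38129801, minus strand), the scaffold of the Y-family polymerases, stood at 19.3, 15.4, 27.3 and 22.2 TPM in libraries 1 to 4. Library 3 was highest and library 2 lowest. Its level carries an uncertainty of its own, because 1643 bases of its exons, 26.6% of them, are shared with exons of Eif5b, a translation initiation factor gene on the opposite strand that meets Rev1 tail to tail. Eif5b had 5677 to 7671 counts, Rev1 622 to 992. Whether counting used strand was not given in the sources used here, and without strand the reads of the shared stretch cannot be told apart. How reads that overlap more than 1 gene were counted was not given either. With only exonic bases that no other gene shares as the length, Rev1 came to 28.2 ± 6.63 TPM, above Polh at 21.6 ± 7.49. This value divides all Rev1 counts by the shorter length and holds only if reads of the shared stretch were left out in counting.

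Poli (chromosome 18, 70508680 to 70530620, minus strand), a close relative of Polh, had 15.9, 17.5, 27.5 and 16.6 TPM. Library 3 stood apart from the other 3, which lay between 15.9 and 17.5 TPM. Polk (chromosome 13, 96480690 to 96542579, minus strand), which extends mismatched ends and bypasses bulky adducts, was the lowest in every library, at 5.43, 3.86, 2.72 and 3.61 TPM. In TPM it was the 1 member that was lowest in library 3, where all the others were highest. The Polk values rest on few reads, 194 counts in library 1 (95% interval 168 to 223) and 89 in library 3 (71.5 to 110).

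Rev3l (chromosome 10, 39732118 to 39875211, plus strand) has the longest exons of the 6, 13293 bases, and encodes a protein of 3122 residues by the longest annotated coding sequence, against 694 for Polh. It had the most counts of the 6 in every library, 952 to 1479, and 30.5% ± 0.888 of their summed counts. Per length it was the fourth in every library, at 14.1, 11, 18.9 and 14.3 TPM, with 16.3% ± 0.618 of the summed TPM. Polq (chromosome 16, 37011786 to 37095417, plus strand) was the fifth in every library, at 8.08, 5.45, 11.2 and 9.5 TPM, so that counts and TPM place the long and the short genes differently.

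The order of the levels was tested by the difference of log2 TPM within each library, for all 15 pairs. In 12 pairs the difference had one direction in 4 of 4 libraries and exceeded its SD. The 3 pairs among Polh, Rev1 and Poli did not: Polh minus Rev1 was 0.03 ± 0.36 (positive in 2 of 4 libraries), Polh minus Poli 0.15 ± 0.44 (3 of 4) and Rev1 minus Poli 0.13 ± 0.27 (2 of 4). Neighbours further down were separated by 0.4 ± 0.25 (Poli minus Rev3l), 0.79 ± 0.17 (Rev3l minus Polq) and 1.13 ± 0.73 (Polq minus Polk). Polh exceeded Polk 5.54-fold, by 2.47 ± 0.7. An exact permutation that flips the signs of the 4 library differences (two-sided) gave p = 0.125 for each of the 12 pairs (0.156 after Benjamini-Hochberg adjustment over the 15), and 0.125 is the smallest p that this test can give with 4 libraries, so that no pair could pass 0.05 in it.

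**Figure D2:**
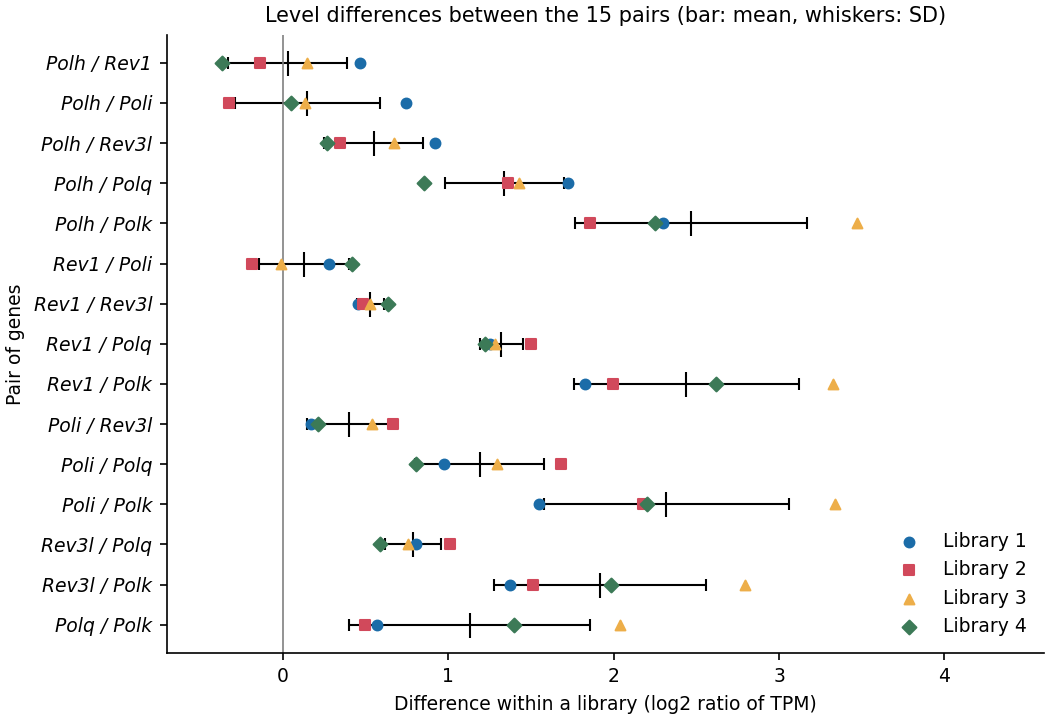
Difference within each library between the members of all 15 pairs (log2 ratio of TPM; points are libraries, bars the mean, whiskers the SD). Points fall on both sides of 0 in the 3 pairs among Polh, Rev1 and Poli, and on one side in the other 12, with Rev1 minus Rev3l the tightest at 0.53 ± 0.08.

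The steadiest ratio of the 15 was that of Rev1 to Rev3l, at 0.45 to 0.63 log2 in the 4 libraries. Both genes lay near the dispersion trend of all genes (1.15 and 1.04 times it), and each had other genes nearer in pattern than this partner, as given further on. The least steady were the ratios to Polk, with SDs of 0.64 to 0.74.

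Gene length decides part of the order. With the longest protein-coding transcript as the length, Polh stood at 33.6 ± 11.2 TPM, 1.53 times its level by union of exons. The union counts 5950 bases, that transcript 3238. On that length Rev1 stood at 25.3 ± 5.47 and Poli at 23.4 ± 6.1. By coding length Polh was at 35.7 ± 10.4, Poli at 20.2 ± 4.2 and Rev1 at 19.7 ± 3.11. The means of Rev3l, Polq and Polk followed in this order below the other 3 under each of these lengths. By coding length, however, Polq minus Polk was 0.35 ± 0.73 log2 and positive in 2 of 4 libraries, so that this pair no longer had one direction. Without any length, in CPM, Rev3l led at 85.1 ± 13.1, ahead of Polh at 57.4 ± 17.5, Rev1 at 57 ± 9.61, Polq at 36.3 ± 8.19, Poli at 34.3 ± 7.22 and Polk at 9.72 ± 3.19.

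**Figure D3:**
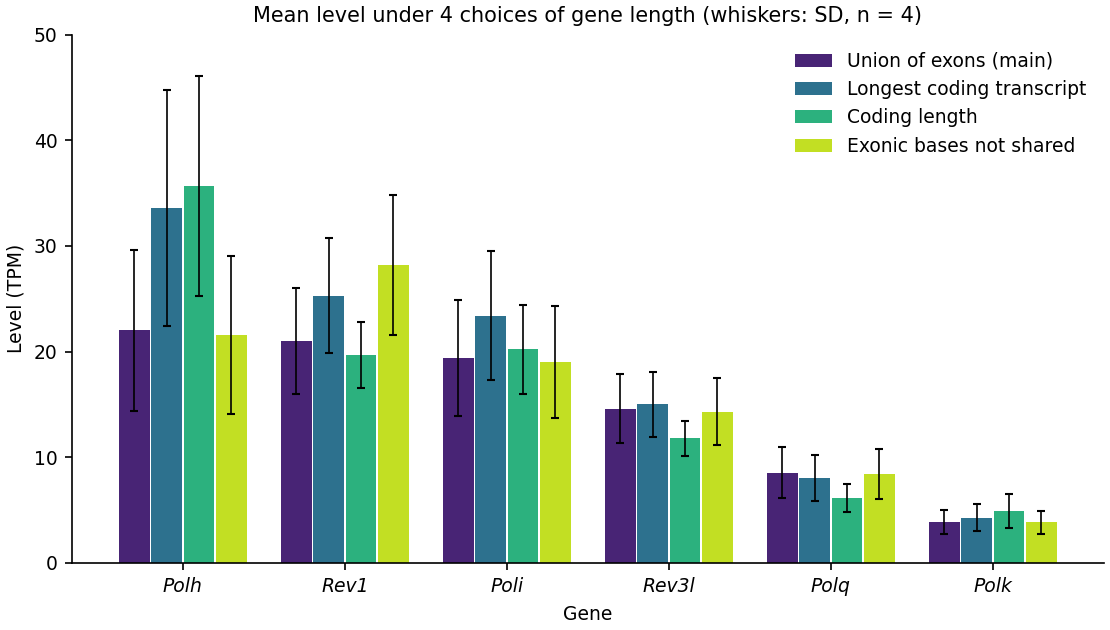
Mean level (TPM, bars from 0) of each gene under 4 choices of gene length, with the SD over 4 libraries as whiskers. Polh moves from 22 by union of exons to 35.7 by coding length, Rev1 reaches 28.2 when bases shared with other genes are left out, and the means of Rev3l, Polq and Polk keep their order, although Polk exceeds Polq in 2 of 4 libraries by coding length.

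Whether any member varied between libraries beyond genes of its expression level was tested over all genes with edgeR's quasi-likelihood fit. None of the 6 passed, against 1 of 11982 genes tested (0.00835%), and none reached an unadjusted p under 0.05, against 595 genes (4.97%). DESeq2 and limma-voom likewise called none of the 6. Polh came nearest: its dispersion was 5.27 times the trend, and 5.21% of all tested genes had a larger ratio. Its unadjusted p fell under 0.05 in 5 of 10 alternative fits, with no adjusted p under 0.724 among them. Polk followed at 2.89 times the trend (13.1% of genes were larger), then Polq at 2.09 (20.5%), Poli at 1.89 (23.3%), Rev1 at 1.15 (40%) and Rev3l at 1.04 (44%). The edgeR adjusted p was 0.99 for each of the 6. The median of all tested genes was 0.895. In simulated counts with 1 library changed 4-fold, the fit called 70.1% of the changed genes. No fold between 1 and 4 was simulated, and the members ranged 1.34- to 2.32-fold on the normalised scale used below. The absence of calls therefore does not show that the 6 levels were stable.

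TPM depends on the share that all other transcripts take of a library. Mitochondrial transcripts took 37.5 to 41.1% of all TPM, and the part of any group of transcripts was not tested. The patterns over libraries were therefore compared on CPM normalised by trimmed mean of M values (TMM). On that scale Polh stood at 72.5, 42, 70.7 and 44.5 CPM in libraries 1 to 4, a 1.73-fold range. Polk had 13.8, 10.8, 5.94 and 8.7 CPM, a 2.32-fold range and the widest of the 6, while Rev3l ranged 1.34-fold, Rev1 1.38-fold, Poli 1.51-fold and Polq 1.6-fold. The members did not move as 1 block: the root mean square distance between the log2 patterns of Rev1 and Rev3l, each centred on its own mean, was 0.07 (the median distance to all tested genes was 0.25 for Rev1 and 0.24 for Rev3l), that between Polq and Rev1 0.11 and between Polq and Rev3l 0.15, whereas Polh lay 0.26 to 0.6 and Polk 0.56 to 0.64 from every other member.

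**Figure D4:**
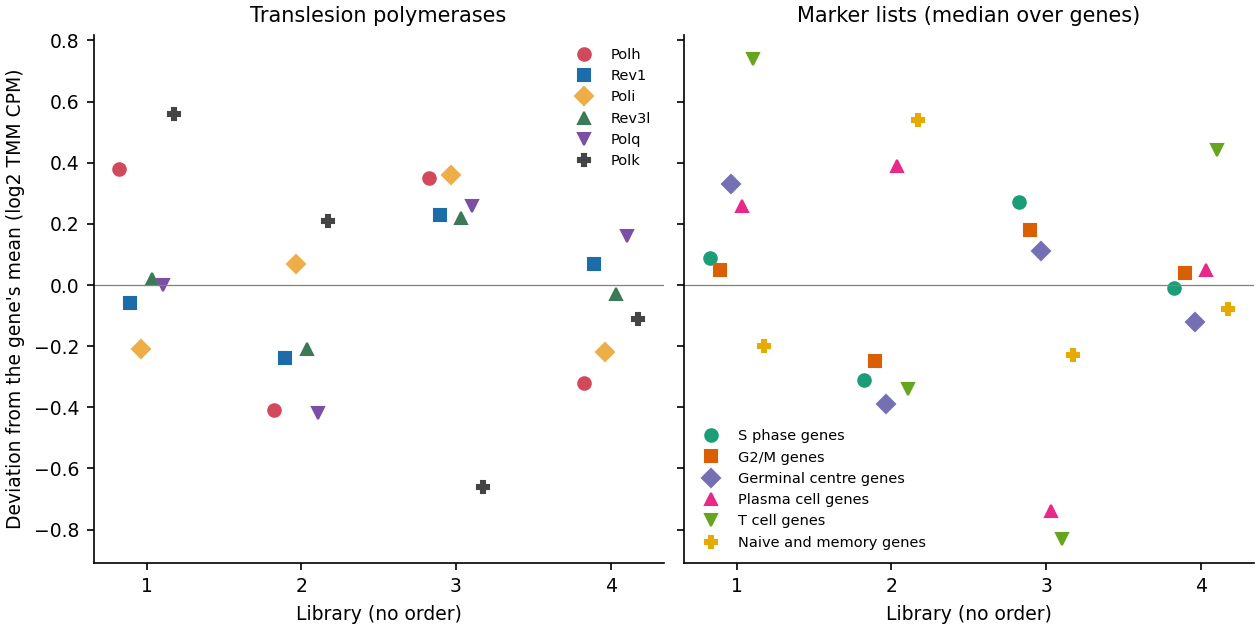
Deviation of each translesion polymerase gene from its own mean (left) and median deviation of the genes of 6 marker lists (right), in log2 TMM CPM, by library. Polh is at 0.38 and 0.35 in libraries 1 and 3 and at -0.41 and -0.32 in libraries 2 and 4, and Polk falls to -0.66 in library 3, where the T cell list is at -0.83 and the plasma cell list at -0.74.

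Markers of proliferation and of cell types were set beside these patterns. Polq, Rev1 and Rev3l were low in library 2 and high in library 3, as were the S phase genes (13 genes, median deviation -0.31 and 0.27) and the G2/M genes (17 genes, -0.25 and 0.18). Of the 13 S phase genes, 12 lay within 0.25 log2 of Polq's pattern, and so did 17 of 17 G2/M genes, against 29.2% of all tested genes. For Rev1 the counts were 13 of 13 and 16 of 17, and the same for Rev3l, but 48.9% and 51.8% of all genes lay that near, so these counts say less. Polh had 7 of 13 and 5 of 17 within that distance, and 3 of 10 germinal centre genes, against 5.46% of all genes. Polk had 0 of 13, 0 of 17 and 0 of 10, against 5.4%. At that share lists this short would hold few such genes or none. Within that distance of Polk lay 2 of 7 tested plasma cell genes, 3 of 9 myeloid genes and 1 of 10 T cell genes. Of the naive and memory genes 0 of 8 did, and of the tested erythroid genes 0 of 4. All these distances rest on the same 4 libraries and are given as descriptions.

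The summed level of the 10 germinal centre markers was 1964, 1369, 2366 and 1747 TPM in libraries 1 to 4, which ranks the libraries as Polh does in TPM. The 9 genes of end joining by Polq, at 631, 512, 840 and 626 TPM, gave the same order. On TMM CPM the order changed, and Polh was highest in library 1 (72.5, against 70.7 in library 3). There the median deviation of the germinal centre list was also highest in library 1 (0.33, against 0.11 in library 3). That of the end joining genes was highest in library 3 (0.1, against 0.07 in library 1). The 8 naive and memory markers summed to 1488, 2709, 1915 and 2003 TPM, highest in library 2, where Polh was lowest, and 4 of 8 had an unadjusted p under 0.05 in the variation test. None of the 10 germinal centre markers passed that test, and 4 had an unadjusted p under 0.05. The 10 T cell markers summed to 483, 214, 190 and 416 TPM and the 8 plasma cell markers to 2158, 1988, 1124 and 2025, both lowest in library 3, as Polk was. The 10 myeloid markers, at 518, 345, 453 and 568 TPM, were lowest in library 2, although their median deviation on TMM CPM was lowest in library 3 (-0.42). None of the T cell or plasma cell markers was at 0 in all libraries, and 10 of 10 and 5 of 7 tested had an unadjusted p under 0.05 in the variation test, against 4.97% of all genes. The part of other cells in the Polk or Polh values was not tested.

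For each member the 3 genes nearest in pattern among the 11982 tested were listed. Polq was nearest to Nf1 and Fam98b (0.034 each) and to Mms22l (0.038), a gene of replication fork repair. Rev1 was nearest to Exosc9 (0.004), Prpf38a (0.011) and Ran (0.015), and Rev3l to Ubxn1 (0.009), Nup54 (0.013) and Tdp1 (0.014). Polh had no gene that near, its nearest being Gm2447 (0.046), the kappa V segment Igkv5-45 (0.063) and Rab26 (0.065). Poli was nearest to Gm48865 (0.015), Slc8b1 (0.037) and H2-Ob (0.04), and Polk to Zfp949 (0.029), Plekha8 (0.03) and Erc1 (0.037). With 4 libraries many genes share a pattern, so that nearness alone links none of them.

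The partners of the translesion polymerases were all present, 17 of 17 above 1 TPM in every library, as were 53.3% of protein-coding genes. None passed the variation test, against 0.00835% of all tested genes, and none had an unadjusted p under 0.05, against 4.97%. At these shares a list this short would hold few such genes or none. The subunits of polymerase zeta besides Rev3l stood above it: Mad2l2 (Rev7), which links Rev3l to Rev1, at 22.5 ± 5.79 TPM, and Pold3 and Pold2, which zeta shares with polymerase delta, at 40.9 ± 10.2 and 95.3 ± 21.8. Pcna, the sliding clamp on which the polymerases exchange, was the most abundant partner at 150 ± 28.9, followed by Usp7 at 113 ± 34.1 and Ube2b, the E2 enzyme of PCNA ubiquitination, at 96.1 ± 10.6. Rad18, the ubiquitin ligase that works with it, was at 9.21 ± 1.56 (9.11, 7.07, 10.6 and 10 TPM), below 4 of the 6 members. Ube2v2, an E2 variant of PCNA polyubiquitination, was the lowest at 2.01 ± 0.427.

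The replicative complexes lay higher on the whole. Of their 12 subunits, 9 exceeded Polh in every library and 12 of 12 exceeded Polk and Polq. The exceptions were Pole2, Prim2 and the catalytic subunit Pola1, which starts DNA synthesis with primase, at 15.8 ± 4.82 TPM (17.2, 9.39, 21 and 15.6), below Polh in every library. The catalytic subunits of the leading and lagging strand polymerases, Pole and Pold1, stood at 35.7 ± 8.74 and 138 ± 30.4. Pold4, a small subunit of polymerase delta, was the highest at 275 ± 32.2.

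Among 7 other DNA polymerase genes, Polm, an X-family end-joining polymerase, was the highest at 62.1 ± 14.6 TPM. The mitochondrial polymerase gene Polg stood at 30.2 ± 4.65 and its accessory subunit Polg2 at 7.27 ± 1.77. The base excision repair polymerase Polb, at 19.4 ± 3.2, was level with Poli, and its relative Poll stood at 27.6 ± 1.84. Poln, an A-family relative of Polq that can also copy past lesions, was at 0.597 ± 0.216, and Dntt, the terminal transferase of early lymphocytes, at 0.357 ± 0.199 with as few as 1 count in a library.

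**Figure D5:**
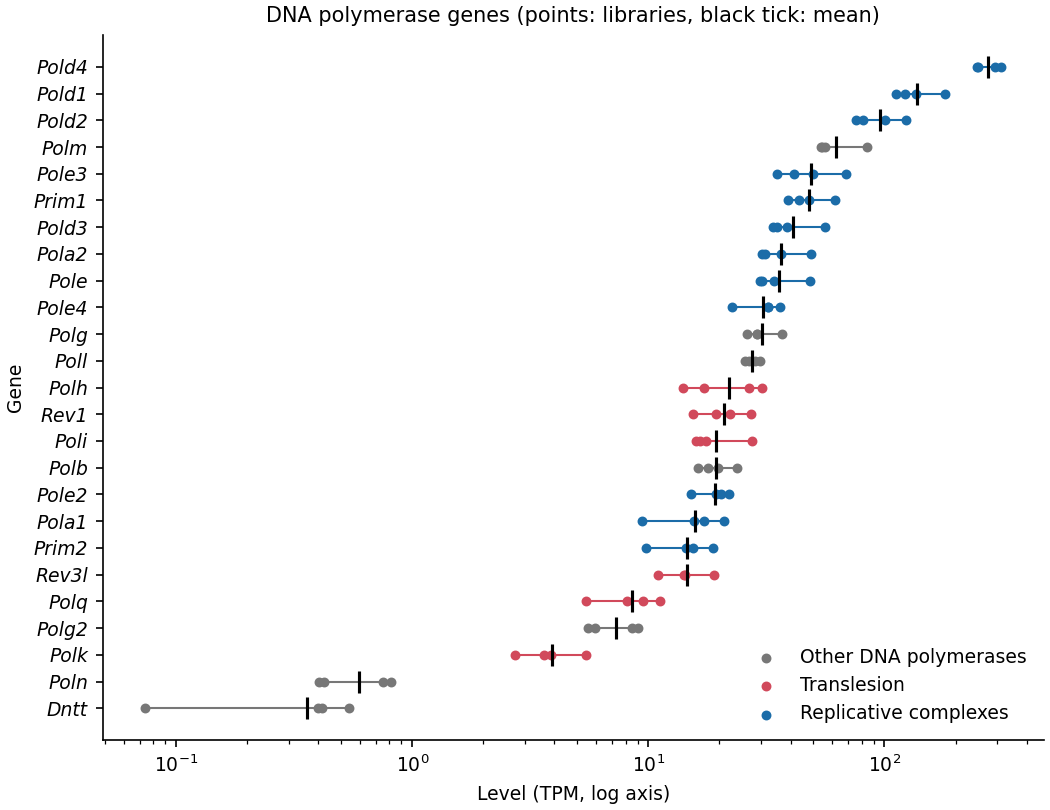
Level of 25 DNA polymerase genes (TPM, log axis), each library as a point and the mean as a black tick, for translesion genes, subunits of the replicative complexes and other DNA polymerases. Polh, Rev1 and Poli sit beside Polb and Poll, and Polk sits above Poln and Dntt alone.

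Genes that act with Polq in end joining at short homologies were measured as a list of 9, all above 1 TPM in every library, as were 53.3% of protein-coding genes. Hmces, a shield of abasic sites, was the highest at 252 ± 55.4 TPM, followed by Parp1 at 163 ± 29.3 and Xrcc1 at 133 ± 39.7, and the flap nuclease gene Fen1 was the lowest at 5.75 ± 0.891. None passed the variation test (0.00835% of all tested genes did) or had an unadjusted p under 0.05 (4.97% did), and so short a list would hold few such genes or none.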

How the data were processed

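RNA of 4 libraries was analysed. The authors deposited raw read counts for each gene in 1 table a library. The submitters' processing notes list the mm10 build, featureCounts 1.6.0, STAR 2.5.2b and FastQC. Strand setting, annotation release and how reads with several matches were treated: not given in the sources used here. Gene lengths and positions came from GENCODE M21 (37536 of 37646 identifiers matched), and TPM was computed from them. The test of variation used R 4.3.3 and edgeR 4.0.16 (TMM, filterByExpr, glmQLFit with an intercept alone), referring each gene's quasi-dispersion over its trend to F, with Benjamini-Hochberg adjustment at 0.05, and with limma 3.58.1 and DESeq2 1.42.0 as alternatives. The fit was tested on simulated counts. Pairs of genes were tested with scipy 1.17.1 in Python 3.11.15. Members, gene lists and tests were chosen with earlier results of these data known. Named genes are the members, the catalytic replicative subunits, other polymerases, the main partners, the 3 highest and the lowest gene of a list, and the 3 nearest in pattern; Prim2, Pole2, Rad18's level in each library, Eif5b and Ddx3y were named after their values were seen. Genes acting upstream of polymerase eta in hypermutation are not reported here.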

Additional observations from a re-analysis of the deposited data

Results flagged for a closer look

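The Poli level was marked for a gap between libraries: library 3 (27.5 TPM) lay above the next library (17.5 TPM) by 0.864 of the whole range, past Dixon's 95% critical value for 4 samples. Chance marks about 1 in 20 such groups, and 6 genes were looked at. On the TMM-normalised CPM scale the same ratio was 0.551, under the critical value. Library 3 was also the library with Y-linked transcripts and had the highest summed TPM of the 6 genes (118, against 67.2 to 89.5 in the others), and the part of either was not tested.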

How the results depend on the processing

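None of the 6 genes passed the variation test under any of the 11 alternatives; for Polh the edgeR or limma adjusted p ran from 0.724 to 0.991. The count of all genes passing was 262 with no filter, 63 with the robust edgeR fit, 159 by DESeq2's dispersion outliers, 0 by limma-voom and 0 without immunoglobulin and mitochondrial genes, and 0 to 19 with 1 library left out (0 without library 2, 19 without library 3, 3 without library 4). Without mitochondrial and immunoglobulin genes in the total, levels were 47 (Polh), 45 (Rev1), 41.5 (Poli), 31.2 (Rev3l), 18.2 (Polq) and 8.62 TPM (Polk), since those genes take much of the TPM. The longest coding transcript gave 33.6 TPM for Polh, and bases shared with no other gene, chosen after the overlap was seen, gave 28.2 for Rev1. Directions turned in 7 of the 15 pairs under some setting. Polh minus Rev1 was -0.42 with unshared bases, -0.03 in CPM and -0.12 to 0.16 with 1 library left out (-0.12 without library 1, -0.01 without library 3). Polh minus Poli was -0.05 without library 1 and 0.31 without library 2, and Rev1 minus Poli -0.02 by coding length. Under other settings pairs among these genes had one direction in 4 of 4 libraries. Polh minus Rev1 was 0.82 ± 0.36 by coding length. Polh minus Poli was 0.49 ± 0.44 by longest coding transcript, 0.8 ± 0.44 by coding length and 0.71 ± 0.44 in CPM. Rev1 minus Poli was 0.57 ± 0.27 with unshared bases and 0.74 ± 0.27 in CPM. Polq minus Polk fell to 0.35 ± 0.73 by coding length, positive in 2 of 4 libraries. In CPM, Polh, Rev1 and Poli minus Rev3l were -0.61, -0.58 and -1.32, and Poli minus Polq -0.07. No paired analysis was possible because all libraries form 1 group.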
